A study of Mus musculus with 15 samples.

Results

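The 3 probes UCSF033_001063, UCSF033_001065 and UCSF033_001066 of a custom 1-colour Agilent microRNA array were followed through a first stimulation, a rest and a second stimulation of mouse CD4 T cells. They are 3 of the 2500 probes on the array and 3 of the 882 probes tested below. They were chosen by their measured pattern in these same arrays, high from 42 h of stimulation on and still high after rest and restimulation, and named by probe ID. Their levels and differences are therefore a description, and no test supports the pattern. The files used here do not pair probe IDs with microRNA names, so the RNAs behind the 3 probes are not named, and no sequence is printed.

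CD4 T cells of C57/B6 mice aged 6 to 8 weeks were taken with magnetic beads from spleen and lymph nodes, and 50 ng of their RNA was used, so all groups share strain, age and tissue. Naive cells without treatment gave 2 arrays. Cells on plates coated with antibodies against CD3, which passes on the signal of the T cell receptor, and CD28, a costimulatory receptor, gave 2 arrays each at 6, 12, 24, 42 and 65 h. Cells taken off the plates after 65 h and kept in medium with IL-2, a growth factor of T cells, until day 7 gave 1 array. Rested day 7 cells put back on the antibodies for 18 h gave 2 arrays. Whether the paired arrays of a condition stem from different animals or cultures is not in the labels, so their spread may be technical. They name no step that separates naive from previously activated CD4 cells, and cell type could not be checked against markers because no probe is named.

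MicroRNAs are short RNAs that an Argonaute protein carries to messenger RNAs, which they repress through base pairing, mostly with a seed near their 5′ end. Stimulation through the T cell receptor and CD28 turns a small resting T cell into a dividing one. In this change many microRNAs are known to become scarcer together with the Argonaute proteins, while some, miR-155 being the best known, become more abundant. Rest in IL-2 takes away the receptor signal and leaves expanded effector cells, in which a second stimulation is a recall response.

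The 15 arrays lay on 2 slides, each with 1 array of every group except that day 7 was on slide 1 alone. The array labelled as the first at 42 h stood apart: 49.6% of its spots were marked non-uniform against at most 0.134% on the other 14, its median spot brightness was 466 against 21.0 to 23.0, and 2146 probes counted as detected there against 640 to 950. Its values are printed for each probe, and group means, differences and standard errors come from the 14 other arrays. The 42 h group then holds 1 array, which, like the single day 7 array, is assumed to vary as the groups of 2 do. A probe's level is given as log2 of its background-subtracted signal over the 75th percentile of the array, so that 0 lies at that percentile and -1 is 1 doubling below it. Levels are compared between arrays within a probe, never between probes. In bulk RNA a change in the share of cells that hold an RNA and a change in its amount per cell cannot be told apart.

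UCSF033_001063 stayed well below the 75th percentile until 24 h and lay at or above it on nearly every later array. Its level was -2.0 and -3.15 on the 2 naive arrays, -2.99 and -3.31 at 6 h, -3.10 and -3.50 at 12 h, and -2.01 and -2.44 at 24 h. It was 0.08 on the second 42 h array (0.58 on the first), 0.55 and 0.65 at 65 h, 0.70 at day 7, and -0.02 and 1.44 after restimulation. The 8 arrays up to 24 h therefore all lay below the 6 later ones, and the naive pair overlapped those at 6, 12 and 24 h. The background-subtracted signal of this probe before scaling was 450 and 300 in naive cells, 1649 and 908 at 65 h and 1326 at day 7. This probe's 7 spots on an array differed by a coefficient of variation of 3.52 to 11.2%, and it was detected on 14 of the 14 arrays.

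UCSF033_001065 lay close to the limit of measurement in naive cells and for the first 12 h. Its level was -7.24 and -7.42 on the naive arrays, -7.42 on both 6 h arrays, -7.42 and -6.83 at 12 h, and -5.60 and -5.53 at 24 h. Here -7.42 is the floor to which lower scaled signals were raised, so these 4 arrays have no order among themselves. The probe was well above background on both naive arrays, with signals of 11.9 and 11.6, and was not detected on the first 6 h and first 12 h arrays. At later times its level was -3.41 on the second 42 h array (-2.05 on the first), -2.28 and -3.00 at 65 h, -3.49 at day 7, and -3.50 and -2.59 after restimulation. The 24 h arrays thus lay above every earlier array and below every later one.

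UCSF033_001066 never reached the floor. Its level was -4.90 and -5.09 in naive cells, -5.34 and -5.17 at 6 h, -5.64 and -4.97 at 12 h, and -3.83 and -3.66 at 24 h. It was -1.71 on the second 42 h array (-0.81 on the first), -1.23 and -0.63 at 65 h, -1.52 at day 7, and -1.53 and -0.64 after restimulation. Both 24 h arrays stood between the early and the late ones. Its spots agreed most closely among the 3 probes, with a median coefficient of variation of 4.54% over the 14 arrays, against 6.85% for UCSF033_001063 and 6.38% over 12 arrays for UCSF033_001065.

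**Figure D1:**
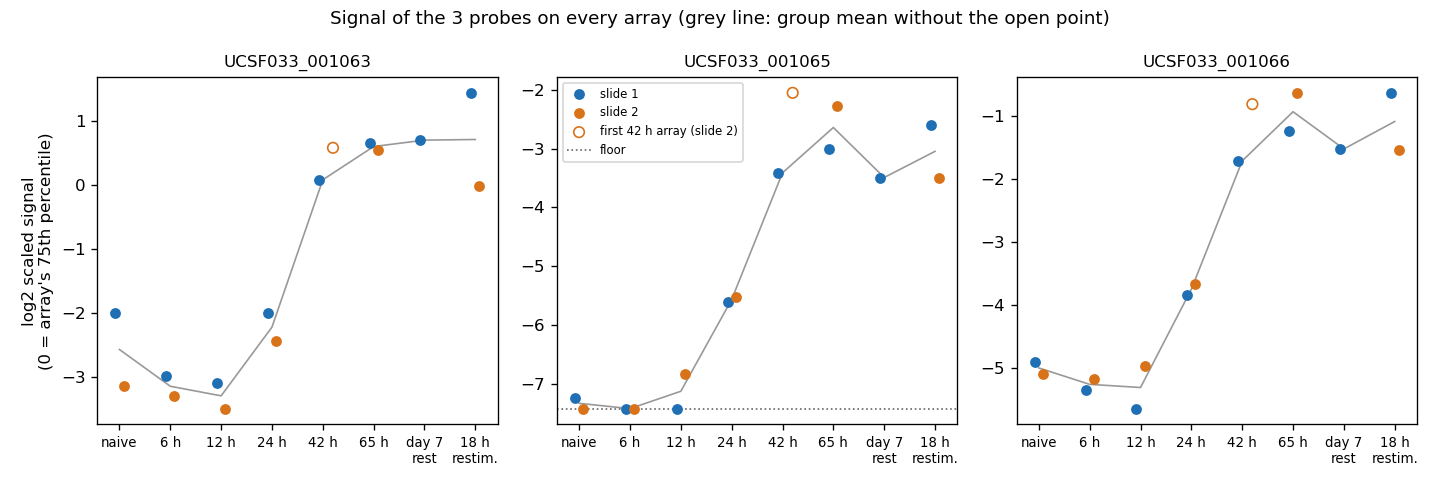
Log2 scaled signal (vertical axis, 0 at the array's 75th percentile, a scale of its own in each panel) of the 3 probes in each group (horizontal axis), 1 point per array, coloured by slide, with the first 42 h array as an open point and the grey line through the group means without it. All 8 points from naive to 24 h lie below the 6 filled points from 42 h on in each panel, and the dotted floor at -7.42 holds 4 arrays of UCSF033_001065.

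In the first 12 h none of the 3 probes stood above naive cells by the rule used here. That rule calls a probe higher when its lowest array in a group lies at least 1 log2 above the highest array of the reference group. At 6 h 0 of the 3 met it, and 1.59% of all 882 tested probes did. At 12 h 0 of the 3 met it, against 3.74%. UCSF033_001063 differed from naive by -0.57 at 6 h and -0.72 at 12 h (limma, SE 0.53), UCSF033_001066 by -0.26 and -0.31 (SE 0.37), and UCSF033_001065 by -0.09 and 0.20 (SE 0.37). The median of the 3 was -0.26 and -0.31, where all tested probes had -0.06 and -0.07. These differences are under 2 SE, and the early values of UCSF033_001063 rest on a pair of naive arrays 1.15 log2 apart: on slide 1 the differences at 6 h and 12 h were -0.99 and -1.09, on slide 2 -0.16 and -0.34. Without the second naive array its 12 h level met the rule as lower.

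At 24 h the probes parted. UCSF033_001065 was higher than naive by 1.77 log2 (SE 0.37), or 3.41-fold. Slide 1 alone gave 1.64 and slide 2 gave 1.89. UCSF033_001066 was higher by 1.25 (SE 0.37), or 2.38-fold, with 1.07 and 1.43. UCSF033_001063 differed by 0.35 (SE 0.53), with -0.01 on slide 1 and 0.71 on slide 2. By the rule 2 of the 3 were higher, and 9.30% of all tested probes were. These 24 h values depend on the scaling: without it the differences were 0.89, 0.16 and -0.74 for UCSF033_001065, UCSF033_001066 and UCSF033_001063, so that of the last changed sign. The count of 2 fell to 1 with the percentile taken over all probes. It fell to 0 without scaling, with another background correction (normexp) and in the deposited value table. Normexp was run with an offset of 50 added to each signal, which shrinks log2 differences most for dim probes.

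At 42 h and 65 h all 3 were far above naive cells. At 42 h the second array lay above the naive mean by 2.66 log2 (SE 0.64) for UCSF033_001063, 3.92 (SE 0.46) for UCSF033_001065 and 3.29 (SE 0.45) for UCSF033_001066. All 3 met the rule, as did 24.8% of tested probes on this 1 array. At 65 h UCSF033_001063 was higher by 3.18 log2 (SE 0.53), or 9.05-fold, UCSF033_001066 by 4.07 (SE 0.37), or 16.8-fold, and UCSF033_001065 by 4.69 (SE 0.37), or 25.8-fold. The floor alone lowers the size for UCSF033_001065: on the scaled signals without it the difference was 4.90, or 29.9-fold. A lowered floor also gave 4.90, and no other processing gave more than 4.69. The difference was 4.21 with a raised floor, 3.46 without scaling, 2.85 with normexp and 2.45 in the deposited value table. The size for this probe is thus uncertain in both directions, as its naive signals lay close to the limit of measurement. All 3 met the rule at 65 h, where 19.0% of tested probes did. Their median difference was 4.07, against 0.59 over all 882 tested probes, which had shifted upward under this scaling. Relative to that shift the 65 h differences were 2.59, 4.10 and 3.48 for UCSF033_001063, UCSF033_001065 and UCSF033_001066.

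Both slides showed the 65 h difference, with larger values on slide 2. UCSF033_001063 was higher by 2.65 on slide 1 and 3.70 on slide 2, UCSF033_001065 by 4.24 and 5.14, and UCSF033_001066 by 3.67 and 4.46. The percentile used for scaling fell on slide 1 from a signal of 1802 in naive cells to 577 at 65 h, and was 2668 and 1125 on slide 2. Part of each scaled difference therefore comes from the division by a lower percentile. Whether that percentile fell through dimmer hybridisation or through scarcer RNAs was not tested. Before scaling, UCSF033_001063, UCSF033_001065 and UCSF033_001066 were still higher at 65 h by 1.73, 3.46 and 2.63 log2, and at 42 h by 0.61, 2.08 and 1.24.

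**Figure D2:**
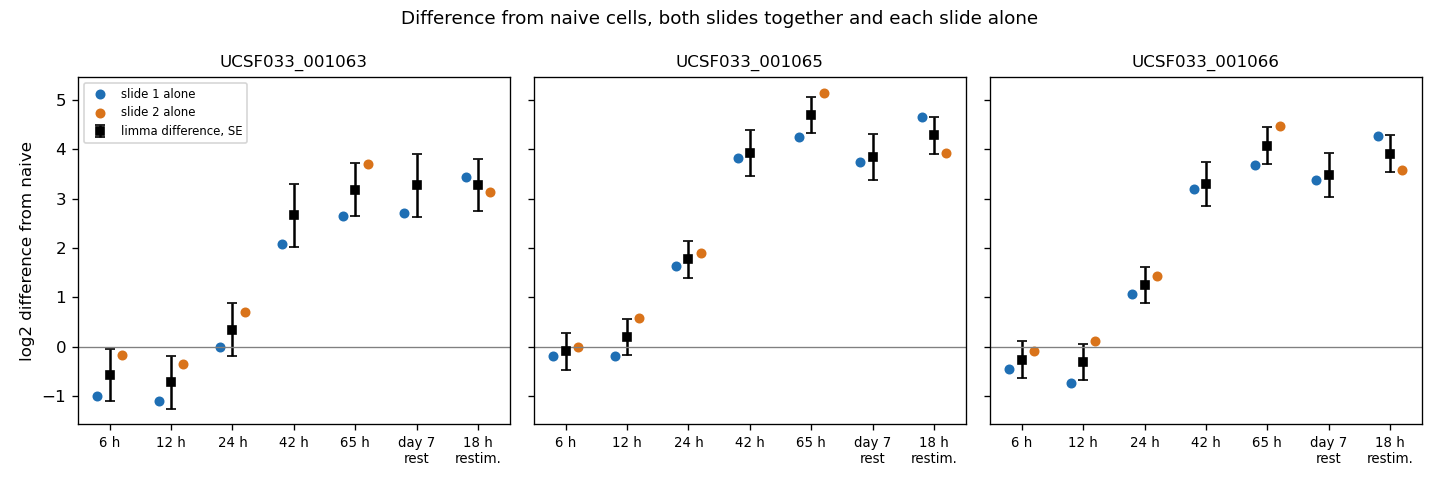
Log2 difference from naive cells (vertical axis) of each probe by group (horizontal axis): squares are limma differences over 14 arrays with their standard errors, circles the difference within slide 1 or slide 2 alone. The squares lie between -0.72 and 0.20 until 12 h, between 0.35 and 1.77 at 24 h and between 2.66 and 4.69 from 42 h on; the circles spread further, from 2.08 to 5.14 from 42 h on.

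After rest to day 7 the 3 probes remained above naive cells. UCSF033_001063 was higher by 3.27 log2 (SE 0.64), or 9.66-fold, UCSF033_001065 by 3.84 (SE 0.46), or 14.3-fold, and UCSF033_001066 by 3.48 (SE 0.45), or 11.1-fold, on 1 array against 2. All 3 met the rule, against 19.4% of tested probes, and their median was 3.48, where all tested probes had 0.25. Set against 65 h, UCSF033_001063 differed at day 7 by 0.09 (SE 0.64), UCSF033_001066 by -0.59 (SE 0.45) and UCSF033_001065 by -0.85 (SE 0.46). The slide 1 arrays alone gave 0.04, -0.29 and -0.49 in the same order. None of the 3 differed from 65 h by 1 log2 or more between the nearest arrays, where 13.0% of all tested probes did in either direction. These differences are under 2 SE. With 1 day 7 array they do not show that the levels were equal, and without the second 65 h array UCSF033_001065 met the rule as lower at day 7.

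After 18 h of restimulation all 3 probes remained above naive cells. UCSF033_001063 lay above naive by 3.28 log2 (SE 0.53), UCSF033_001065 by 4.28 (SE 0.37) and UCSF033_001066 by 3.91 (SE 0.37), which are 9.74-fold, 19.5-fold and 15-fold differences. All 3 met the rule, and 18.6% of tested probes did. Their median was 3.91, against 0.37 over all tested probes. The comparisons of 42 h, 65 h, day 7 and restimulated cells with naive cells share the same naive arrays, so their agreement is not independent.

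Against day 7, restimulated cells differed by 0.01 (SE 0.64) for UCSF033_001063, 0.44 (SE 0.46) for UCSF033_001065 and 0.43 (SE 0.45) for UCSF033_001066. By the same rule in either direction 0 of the 3 differed, and 8.28% of tested probes did. The 2 restimulated arrays stood on either side of the day 7 array or level with it. On slide 1, which holds the day 7 array, the restimulated array was higher by 0.74, 0.90 and 0.87 for UCSF033_001063, UCSF033_001065 and UCSF033_001066. The restimulated array on slide 2 differed from the day 7 array by -0.72 for UCSF033_001063 and lay at nearly the same level for the others. Of all groups with 2 arrays in use, restimulated cells had the widest pair for UCSF033_001063, -0.02 against 1.44. Without the first restimulated array the mean difference of the 3 from day 7 was 0.84, and without the second -0.25.

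**Figure D3:**
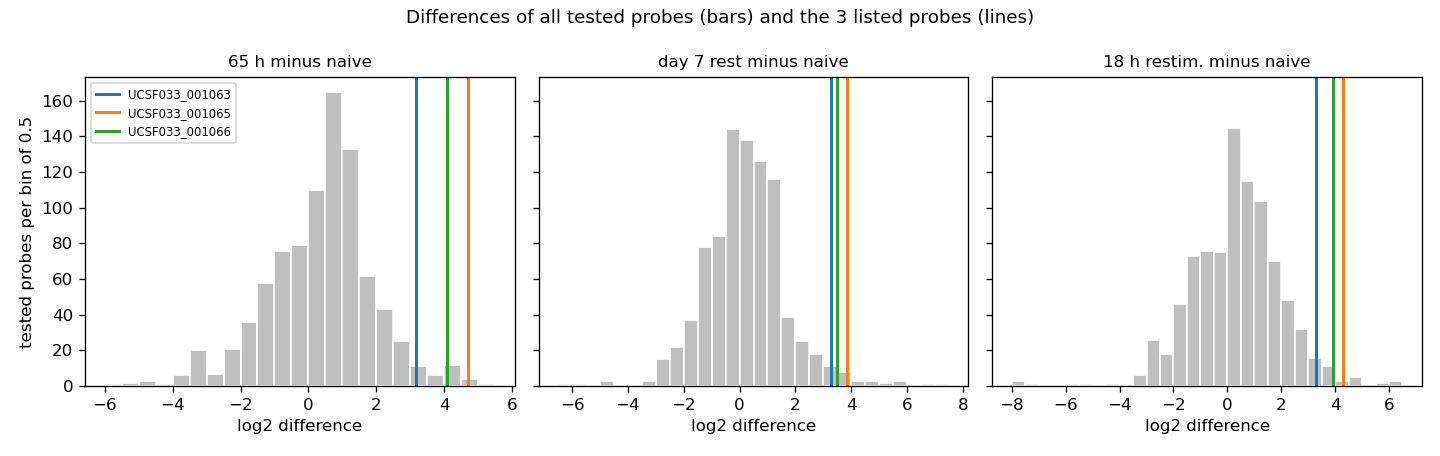
Number of tested probes (vertical axis) in bins of 0.5 log2 of the difference from naive cells (horizontal axis) at 65 h, at day 7 and after restimulation, with a vertical line for each of the 3 probes. The lines lie in the upper tail of all 882 probes, at 3.18 to 4.69, 3.27 to 3.84 and 3.28 to 4.28.

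Among all tested probes, 3 had a larger difference than UCSF033_001065 at 65 h, 15 a larger one than UCSF033_001066 and 30 a larger one than UCSF033_001063. At day 7 these counts were 15, 21 and 24, and after restimulation 10, 15 and 26. The order of the 3 was the same in the 4 late groups, with UCSF033_001065 highest and UCSF033_001063 lowest above naive, although the day 7 values lay within 0.57 log2 of each other, less than the SE of 0.64 for UCSF033_001063. It held for the scaled, floored signals and not under every processing: at day 7 UCSF033_001063, UCSF033_001066 and UCSF033_001065 were higher by 3.08, 2.79 and 2.28 after normexp background correction, and by 2.92, 2.46 and 2.05 in the authors' deposited table, the reverse order. The normexp offset shrinks differences most for dim probes, and naive signals were lowest for UCSF033_001065 and highest for UCSF033_001063, so normexp cannot settle the order. With a raised floor, too, UCSF033_001065 was no longer the highest at day 7 (3.36, against 3.48 for UCSF033_001066). As the probes were picked for high late values, these places describe them and carry no test.

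For each probe the groups up to 24 h lay below the later ones. For UCSF033_001065 and UCSF033_001066 the 24 h group also stood apart from the earlier groups. For UCSF033_001063 the order from low to high was 12 h, 6 h, naive, 24 h, 42 h, 65 h, day 7 and restimulated. Neighbours up to 24 h overlapped, 24 h and 42 h were 2.09 apart between their nearest arrays, and day 7 and restimulated cells overlapped. For UCSF033_001065 the order was 6 h, naive, 12 h, 24 h, day 7, 42 h, restimulated and 65 h, with gaps of 1.23 from 12 h to 24 h and 2.04 from 24 h to day 7, and overlap from 42 h on. For UCSF033_001066 it was 12 h, 6 h, naive, 24 h, 42 h, day 7, restimulated and 65 h, with gaps of 1.07 from naive to 24 h and 1.95 from 24 h to 42 h. The 42 h and day 7 levels of that probe differed by 0.19 and the others above them overlapped.

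UCSF033_001065 and UCSF033_001066 moved together more closely than either did with UCSF033_001063. Over the 14 arrays the first pair correlated at r = 0.996, and UCSF033_001063 at 0.956 with UCSF033_001065 and 0.969 with UCSF033_001066. Within the 8 arrays up to 24 h the r values were 0.960, 0.565 and 0.642 in the same order, and within the 6 later arrays 0.961, 0.576 and 0.709. The step between the early and the late arrays thus raised r for the pairs with UCSF033_001063, and less for the other pair. For that other pair the early r of 0.960 includes a step of its own, as both 24 h arrays lay above the earlier ones. UCSF033_001065 also lay at the floor on 4 of the 8 early arrays. Each point is 1 array, on which both probes share the RNA, the slide and the scaling, so these correlations are descriptions.

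The adjacent IDs outside the list showed what the list leaves out. UCSF033_001064, between the members, was not well above background on any of the 14 arrays, with signals of -1.24 to 1.51 over its 6 spots, and has no level here. On the first 42 h array its signal was 66.8 and it counted as detected. UCSF033_001062 and UCSF033_001067, on either side, had the pattern of the list. UCSF033_001062 was higher than naive by 2.77 log2 (SE 0.37) at 65 h, 2.61 (SE 0.45) at day 7 and 3.04 (SE 0.37) after restimulation. UCSF033_001067 was higher by 2.97 (SE 0.38), 2.83 (SE 0.47) and 3.15 (SE 0.38). Just inside the list UCSF033_001063 had 3.18, 3.27 and 3.28. At 24 h the neighbours differed from naive by 0.13 and 0.30, near the 0.35 of UCSF033_001063 and below the 1.25 and 1.77 of UCSF033_001066 and UCSF033_001065. The pattern is thus not particular to the listed probes, and whether adjacent IDs measure 1 RNA or several cannot be told from the files used here.

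Outside these IDs, the probes most like the mean of the 3 over the 14 arrays were UCSF033_001054 (Pearson r = 0.983) and UCSF033_000688 (r = 0.980). Of 878 tested probes with any spread, 33 reached r above 0.9, 28 of them outside UCSF033_001062 to UCSF033_001067. The 33 include the 3 members, whose r is high by construction because the mean contains them. UCSF033_001054 was higher than naive by 0.88 log2 (SE 0.36) at 24 h, 2.80 at 65 h, 2.40 at day 7 and 2.49 after restimulation. UCSF033_000688 was higher by 1.79 (SE 0.26) at 65 h, 1.93 at day 7 and 1.67 after restimulation, with 0.25 at 24 h. Within the 8 early and the 6 late arrays they correlated with the mean at 0.834 and 0.802 for UCSF033_001054 and 0.811 and 0.689 for UCSF033_000688. By rank correlation UCSF033_001054 stood 16th and UCSF033_000688 4th (Spearman 0.895 and 0.938), so which probes come first depends on the measure.

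**Figure D4:**
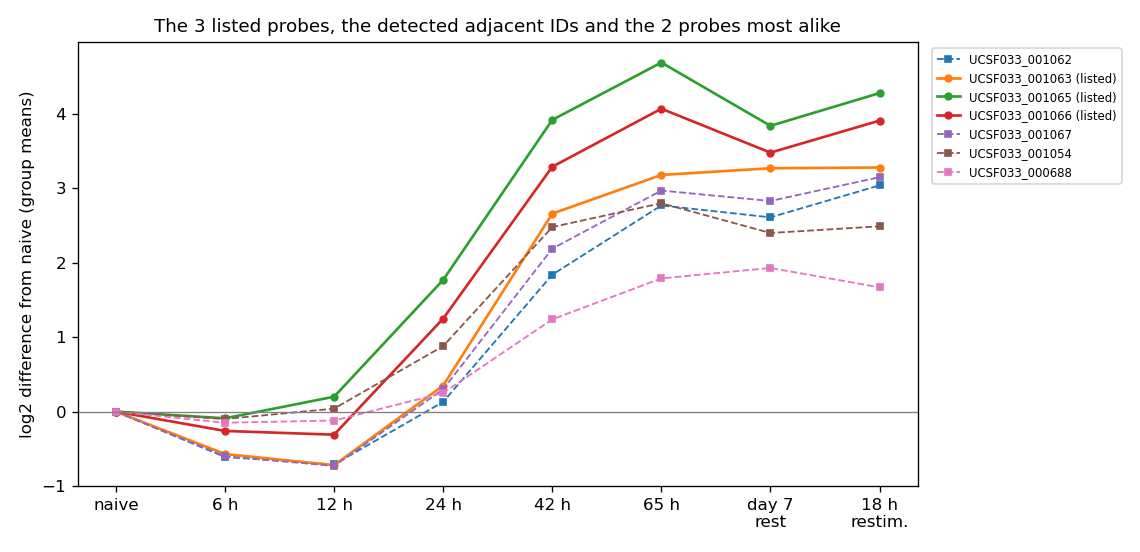
Log2 difference of group means from naive cells (vertical axis) by group (horizontal axis) for the 3 listed probes (solid lines), the detected adjacent IDs UCSF033_001062 and UCSF033_001067 and the 2 most alike probes (dashed lines). All 7 lines lie between -0.73 and 0.20 until 12 h and at 1.24 or more from 42 h on.

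The authors' deposited value table holds the 3 probes too. At 42 h, 65 h, day 7 and after restimulation each was higher than naive in it by less than in the scaled scanner values. In it UCSF033_001063 read 8.52 and 7.71 in naive cells, 10.59 and 10.70 at 65 h, 11.03 at day 7 and 10.12 and 11.15 after restimulation. UCSF033_001065 read 4.91 and 4.87 in naive cells, and the undetected UCSF033_001064 between 4.21 and 4.45 on the 15 arrays, which shows how near the low end of that scale the naive values of UCSF033_001065 lie. UCSF033_001066 read 6.15 and 6.17 in naive cells, 9.65 and 8.71 at 65 h, and 8.62 at day 7. The 65 h differences in the table were 2.53, 2.45 and 3.03 for UCSF033_001063, UCSF033_001065 and UCSF033_001066. The probe with the largest difference in the scanner values thus had the smallest in the table. Without scaling the scanner differences at 65 h were 1.73, 3.46 and 2.63 in the same order, so only that of UCSF033_001065 was smaller in the table. The table's column for the first 42 h array gave 10.14, 7.07 and 8.83, at most 0.40 from the second 42 h column, although over all probes it correlated with its scanner file at only 0.462 in rank, against at least 0.961 for the others.

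**Figure D5:**
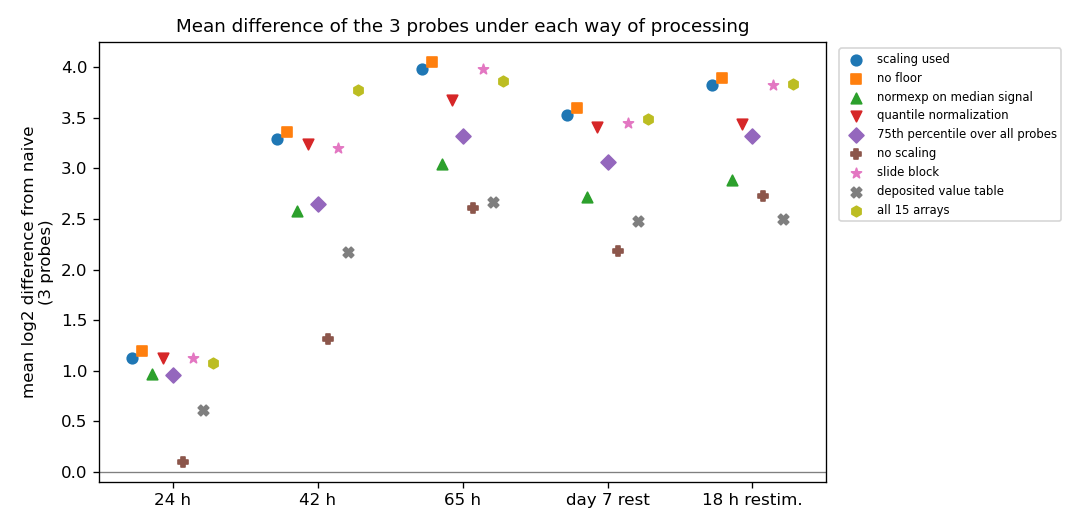
Mean log2 difference of the 3 probes from naive cells (vertical axis) at 24 h, 42 h, 65 h, day 7 and after restimulation (horizontal axis), with 1 marker per way of processing the same arrays. From 42 h on every marker is above 1, from 1.31 without scaling at 42 h to 4.05 without a floor at 65 h, while at 24 h the markers range from 0.10 to 1.19.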

How the data were processed

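RNA labelled with Cy3 was hybridised to 15 arrays of 1 custom design. The deposited scanner files hold intensities of 15665 spots, background-subtracted and not normalized between arrays. The scanner software was Agilent Feature Extraction, version 10.1.1.1 per the file headers and 10.6 in the submitters' processing notes. A table of log2 values of 2191 probes was deposited by the authors; how they were made, their scale and centring are not given in the sources used here.

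Control spots were dropped, as were those flagged as non-uniform or as population outliers. The processed signal was averaged over a probe's spots, divided by the array's 75th percentile over the 571 probes detected on all 14 arrays in use, floored at 0.583% of it (5th percentile of detected values) and log2-transformed. Detection on an array required that over 50% of a probe's kept spots stood well above background. The 882 tested probes were detected on the full pair of at least 1 group. Differences and standard errors came from limma 3.58.1 (R 4.3.3) with a term per group and no covariate; the script was tested on simulated data. The members, rules and lists were chosen with earlier results of these data known. Named probes are the members, the adjacent IDs and the 2 others of highest Pearson r with the members' mean. Alternatives were the scaling, floor, background correction, spot summary and filter, slide block, deposited table, all 15 arrays and leaving out each array.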

Additional observations from a re-analysis of the deposited data

How the results depend on the processing

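Of 230 alternative values of the 3 probes' mean difference (9 comparisons), 206 moved by less than the pooled spread between arrays (0.38 log2) and 24 moved further. Leaving out an array of neither compared group cannot move the difference, so many of the 206 were fixed in advance. In the 4 comparisons where all 3 met the rule (42 h, 65 h, day 7 and restimulated against naive), 0 values changed sign. Elsewhere the 12 h mean went from -0.28 to 0.08 with normexp. Restimulated against day 7 went from 0.30 to -0.25 without the second restimulated array. As reported it was 1.12 (24 h), 3.29 (42 h), 3.98 (65 h), 3.53 (day 7) and 3.83 (restimulated). Without scaling it was 0.10, 1.31, 2.61, 2.18 and 2.73 in that order. The value table gave 0.61, 2.17, 2.67, 2.48 and 2.50. At 42 h, 65 h, day 7 and after restimulation, normexp on the median signal (offset 50) gave 2.58, 3.04, 2.72 and 2.89, and the 75th percentile over all probes 2.65, 3.32, 3.06 and 3.32. With all 15 arrays 42 h was 3.78, and quantile normalization gave 3.44 after restimulation. Leaving out 1 array at a time gave 3.28 to 4.37 for restimulated cells against naive and -0.25 to 0.84 against day 7, both set by the restimulated pair; the other comparisons moved by less than the spread. All 3 probes met the rule at 65 h, day 7 and after restimulation under each of 11 processing alternatives (not counted without a floor). Among these the slide block could not change a call, because the rule compares the array levels themselves. At 42 h 2 did without scaling, and at 24 h the count fell below 2 under 4 alternatives.

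The share of all tested probes meeting the rule moved more. At 65 h it was 4.31% without scaling, 8.08% in the value table, 9.75% with the percentile over all probes and 32.8% without the first 65 h array. At 42 h it ran from 2.72% without scaling to 56.0% with normexp, at day 7 from 5.67 to 32.5%, after restimulation from 4.54 to 30.7%, at 24 h from 2.38 to 14.3%, at 12 h from 0.907 to 10.4% and at 6 h from 0.567 to 6.07%. Between day 7 and 65 h it ran from 4.31 to 31.8%, and between restimulated cells and day 7 from 2.38 to 29.6%. The causes were not tested. The slide block could not change differences between groups that were balanced over both slides. In the comparisons with 42 h or day 7 it moved no mean difference beyond the spread. The variant without a floor and the correlations within early and late arrays were added after seeing the data. The number of arrays limits the precision.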
